A study of Mus musculus with 4 samples.

Results

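Claudins, connexins and the tight junction genes beside them are the genes through which neighbouring cells seal and couple their membranes. The members were chosen by symbol alone: every claudin (Cldn followed by a number), every connexin (Gja, Gjb, Gjc or Gjd followed by a number), the Tjp genes, and Ocln, F11r, Jam2, Jam3 and Marveld2. The rule found 52 of the 33456 genes in the files, 25 of them claudins, 19 connexins and 8 others. No measured value entered the rule.

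The study followed the development of the mouse embryonic hindlimb by droplet single-cell RNA sequencing of the 3' ends of transcripts. There are 4 libraries, 1 each at embryonic day 11.5, 13.5, 15.5 and 18.5 (E11.5 to E18.5), which cover the limb bud, the first cartilage condensations, the time of joint cavitation and the shaping of the joints. Each library is C57BL/6 hindlimb tissue, and the labels record no treatment or genetic change: limbs of 6 to 7 pups of 1 litter were digested with collagenase and pronase, and the cells were pooled, frozen, thawed and depleted of dead cells before capture. A library is therefore 1 pool of 1 litter, with no replicate at its stage, and litter, digestion and capture cannot be told apart from stage.

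Claudins span the membrane in the tight junction and decide which ions and solutes pass between cells; Ocln (occludin) and Marveld2 (tricellulin) are further membrane proteins of that junction, and the Tjp genes encode the ZO proteins, which tie it to actin. F11r, Jam2 and Jam3 encode junctional adhesion molecules of the immunoglobulin family. Connexins form the channels of gap junctions, through which small molecules pass from cell to cell. In skin, claudins form the water barrier and connexins couple keratinocytes; in vessels, Cldn5 is the main claudin of endothelium and Gja4 and Gja5 are known from arteries.

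Promoter sequence is shown for 3 claudins that shared the pattern of the limb ectoderm described below (Cldn3, Cldn4 and Cldn7) and for Cldn5, nearly all of whose counts lay in endothelium, so that the stretches before genes of like and of unlike pattern can be read side by side. Each is the 250 bases before the transcription start, from RefSeq on GRCm38.p6 (mm10), written 5' to 3' on the gene's own strand, and each start is the same base in GENCODE vM21. Capitals mark matches, on either strand, to AACNNGTT (the motif of grainyhead-like factors), CAGGTG (the E-box bound by Snai and Zeb factors), GGGCGG (GC box) and TATAAA (the box named after its first letters). The first lies at chr5:134985964-134986213 on the plus strand, the next at chr5:134946935-134947184 on the minus strand, then chr11:69964529-69964778 and chr16:18776597-18776846, both on the plus strand.
Cldn3: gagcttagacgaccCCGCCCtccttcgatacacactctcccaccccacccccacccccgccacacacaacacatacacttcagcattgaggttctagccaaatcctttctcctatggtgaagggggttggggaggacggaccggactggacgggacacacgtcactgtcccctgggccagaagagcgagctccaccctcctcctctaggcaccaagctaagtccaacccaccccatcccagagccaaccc
Cldn4: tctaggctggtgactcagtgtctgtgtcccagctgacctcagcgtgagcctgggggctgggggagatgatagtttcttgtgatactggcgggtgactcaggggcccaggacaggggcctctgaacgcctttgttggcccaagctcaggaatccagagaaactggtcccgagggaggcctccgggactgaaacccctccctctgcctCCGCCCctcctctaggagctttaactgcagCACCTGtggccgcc
Cldn7: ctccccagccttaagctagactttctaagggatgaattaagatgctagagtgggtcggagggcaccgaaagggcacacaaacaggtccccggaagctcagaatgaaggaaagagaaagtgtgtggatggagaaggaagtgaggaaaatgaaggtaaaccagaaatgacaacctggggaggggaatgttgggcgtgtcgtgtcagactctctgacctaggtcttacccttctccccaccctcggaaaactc
Cldn5: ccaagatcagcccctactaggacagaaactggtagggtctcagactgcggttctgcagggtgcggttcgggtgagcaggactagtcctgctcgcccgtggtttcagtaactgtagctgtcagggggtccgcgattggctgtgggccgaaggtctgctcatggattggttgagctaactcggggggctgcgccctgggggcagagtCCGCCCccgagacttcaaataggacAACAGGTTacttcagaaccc

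The grainyhead-like motif was found in the Cldn5 stretch and in none of the 3 ectodermal ones, the E-box in Cldn4 only, and the GC box in Cldn3, Cldn4 and Cldn5. The Cldn7 stretch held no match to any of the 4 motifs. Cldn7 has 2 listed starts, and only the stretch shown was searched. Over all 32851 listed promoters of the same length the motifs occurred in 3.64% (grainyhead-like), 17.2% (E-box), 32.7% (GC box) and 12.4% (TATAAA). Of the 36 members with a listed promoter, 3, 6, 15 and 5 held them in the same order, at the first start listed for each member. These matches are letters in a window, and no factor binding was measured here. Several members are neighbours. Cldn4 and Cldn3 lie 39280 bases apart on chromosome 5 with no coding gene between them, Cldn6 and Cldn9 face each other 138 bases apart on chromosome 17, Gjb2 and Gjb6 lie on chromosome 14 (57098600 to 57104702 and 57123303 to 57133611, minus strand), and Ocln and Marveld2 lie 43239 bases apart on chromosome 13.

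In all 9929 cells were kept, 1896 to 2812 per library, with a median of 6944.5 (E18.5) to 10263.5 (E13.5) UMIs (unique molecular identifiers, each a counted transcript) per cell. Between 8 and 15 cell barcodes were shared by any pair of libraries. Cells were clustered without the members, so that no member defined a cluster, and clusters were named from marker lists. Epithelium-like cells numbered 364, 242, 165 and 233 in stage order, endothelium-like cells 394, 109, 112 and 47, and cartilage-like cells 0, 1357, 1425 and 301, so cartilage was not described at E11.5. The 13 epithelial markers summed to between 5548 and 26332 counts per 1000000 UMIs (CPM) in epithelium-like cells and to at most 141 CPM in the other 2 classes. The 12 endothelial markers summed to between 3862 and 7454 CPM in endothelium-like cells and to at most 77.1 CPM elsewhere. The 14 cartilage markers summed at E13.5 and E15.5 to 1582 and 1400 CPM in epithelium-like cells, to 2656 and 4176 CPM in endothelium-like cells and to 33483 and 41231 CPM in cartilage-like cells. Without subclusters in which markers of another class were raised (13, 10 and 15 cells), Ocln between endothelium and epithelium and Gja1 in epithelium at E13.5 lost their calls. No member is on any marker list.

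Different clusters made up a class at different stages, and this stands beside every stage comparison. At E11.5 the epithelium-like class held a cluster with Krt8 and Krt19 among its leading genes (124 cells) and a cluster with Sp8 and Dlx2 among them (239 cells). At E13.5 and E15.5 it was mostly a cluster led by Gjb6, Irx6 and Wnt10a (227 and 134 cells), and at E18.5 a cluster led by Ly6d and Krtdap (224 cells). Endothelium-like cells at E11.5 were mostly a Plvap and Emcn cluster (386 cells) and at E13.5 and E15.5 mostly a Gpihbp1 cluster (102 and 70 cells). At E18.5 they were 26 cells of a lymphatic cluster (Ccl21a, Lyve1), 16 of a Gkn3 and Vwf cluster and 5 others. Although members took no part in the clustering, some stand among the 10 leading genes of these clusters: Cldn3 leads the Krt8 cluster, Gjb2 is in the Sp8 cluster, Gjb6 and Gjb2 are in the Irx6 cluster and Gja5 is in the Gkn3 cluster.

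The members summed to 78169 UMIs in kept cells. Of the 52, 48 had at least 1 UMI and 29 had at least 100 (13 claudins, 8 connexins and all 8 others); those reported here are described with values. Levels are CPM of the class's UMIs without globin genes, in 1 library each, with an exact 95% Poisson interval where given; intervals cover counting error only. Because reads come from 3' ends, levels are compared between cells and not between genes.

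**Figure D1:**
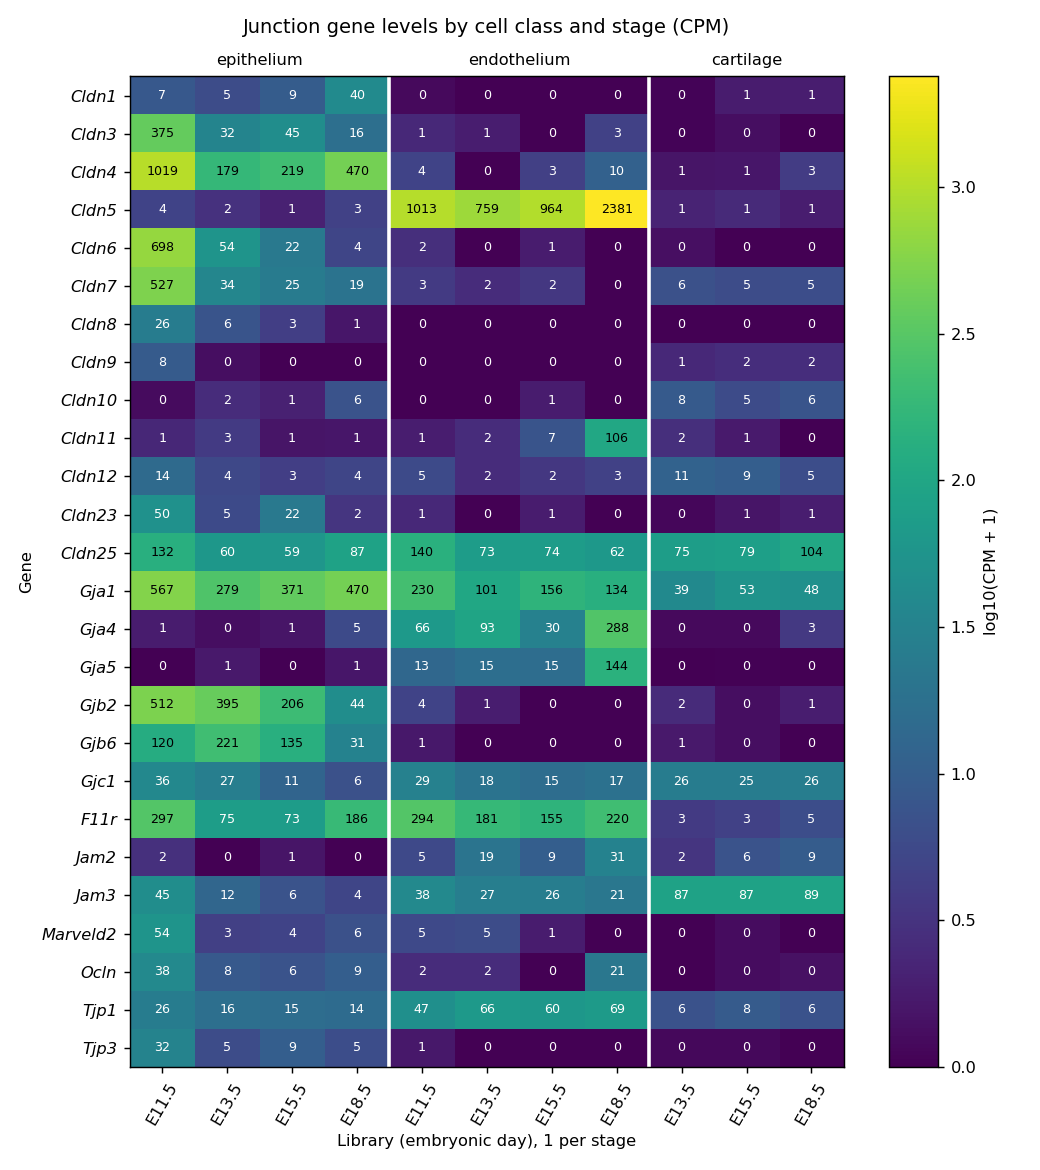
Level of 26 members with at least 100 UMIs (rows) in epithelium-like, endothelium-like and cartilage-like cells of each library (columns); the number in each cell is CPM and the colour is log10(CPM + 1). Cldn5, Gja4 and Gja5 stand out in the endothelium columns, Cldn3, Cldn4, Cldn6, Cldn7, Gjb2 and Gjb6 in the epithelium columns, and Cldn25 and Gjc1 have counts in every column.

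Among the members tested, more were called higher in epithelium than in either other class, a smaller set was called higher in endothelium, and few were called higher in cartilage. UMIs were summed per class and library and compared with edgeR's quasi-likelihood test, with the library as a block, over 11050 genes (11 sums: 4 libraries of epithelium, 4 of endothelium, 3 of cartilage). At E18.5 the cluster holding 226 of the 301 cartilage-like cells had a tendon marker (Fmod) and no cartilage marker among its 10 leading genes. It nevertheless had 13 cartilage markers raised, and cartilage clusters of 863 and 736 cells likewise had no cartilage marker among their leading genes. The 14 cartilage markers summed to 62385 CPM in cartilage-like cells of E18.5. Without the E18.5 library, 17 members were higher and 3 lower in epithelium than in cartilage. In endothelium against cartilage 8 were then higher and 4 lower. The test asks whether a class difference is steady over the stages; 26 members passed the filter on low counts, which keeps genes that are high in any class, so counts over these 26 do not describe all 52. Of the 26, 16 were higher in epithelium than in cartilage, where 20.1% of all genes tested were called higher, and 2 were lower, where 19.2% were. In endothelium against cartilage 8 members were higher (17.8% of all genes) and 4 lower (18.5%). In endothelium against epithelium 6 were higher (17.1%) and 13 lower (16.1%). The median log2 ratio of the members was 3.32 for epithelium over cartilage, 0.31 for endothelium over cartilage and -1.90 for endothelium over epithelium, and over all genes 0.06, -0.03 and -0.07.

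The epithelial set was led by Gjb6 (connexin 30), Cldn4 and Gjb2 (connexin 26), with log2 ratios over cartilage of 8.34 (SE 0.35), 8.16 (SE 0.41) and 8.07 (SE 0.46). Cldn6 (7.53, SE 0.50) and Cldn3 (7.48, SE 0.49) followed. The adjusted p-values of these 5 by edgeR lay between 2.62e-07 (Gjb6) and 2.29e-06 (Cldn3 and Cldn6), and the epithelial level was above the cartilage level in 3 of 3 libraries that held both classes. Ocln (5.54, SE 1.02), Marveld2 (5.26, SE 1.01), Tjp3 (5.16, SE 0.50), F11r (4.88, SE 0.31), Cldn23 (4.73, SE 0.54), Cldn1 (4.45, SE 0.50), Gja1 (connexin 43; 2.95, SE 0.19), Cldn7 (2.43, SE 0.39) and Tjp1 (1.32, SE 0.28) were also higher in epithelium than in cartilage. Jam3 (-3.14, SE 0.36) and Cldn12 (-1.03, SE 0.34) were lower, Cldn12 without a call when the E13.5 or the E15.5 library was left out.

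The endothelial set was small. Cldn5 had a log2 ratio of 9.56 (SE 0.36) over cartilage and 8.74 (SE 0.32) over epithelium, with adjusted p-values by edgeR of 1.25e-07 and 6.89e-08. Gja5 (connexin 40) stood 8.98 (SE 0.69) over cartilage and 6.60 (SE 0.63) over epithelium, and Gja4 (connexin 37) 7.50 (SE 0.38) and 6.35 (SE 0.35). Jam2 was 3.92 (SE 0.88) above epithelium, and Tjp1 was 1.73 (SE 0.24) above it. F11r was not called between endothelium and epithelium (log2 ratio 0.63, SE 0.22), while it was called above cartilage in each class. Among the 13 members lower in endothelium were Gjb6 (-8.29, SE 0.40), Cldn6 (-8.21, SE 0.54) and Gjb2 (-7.50, SE 0.45). Without the E11.5 library 19 members passed the filter and 7 were lower, and Ocln and Cldn12 lost their calls in 5 alternatives each.

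**Figure D2:**
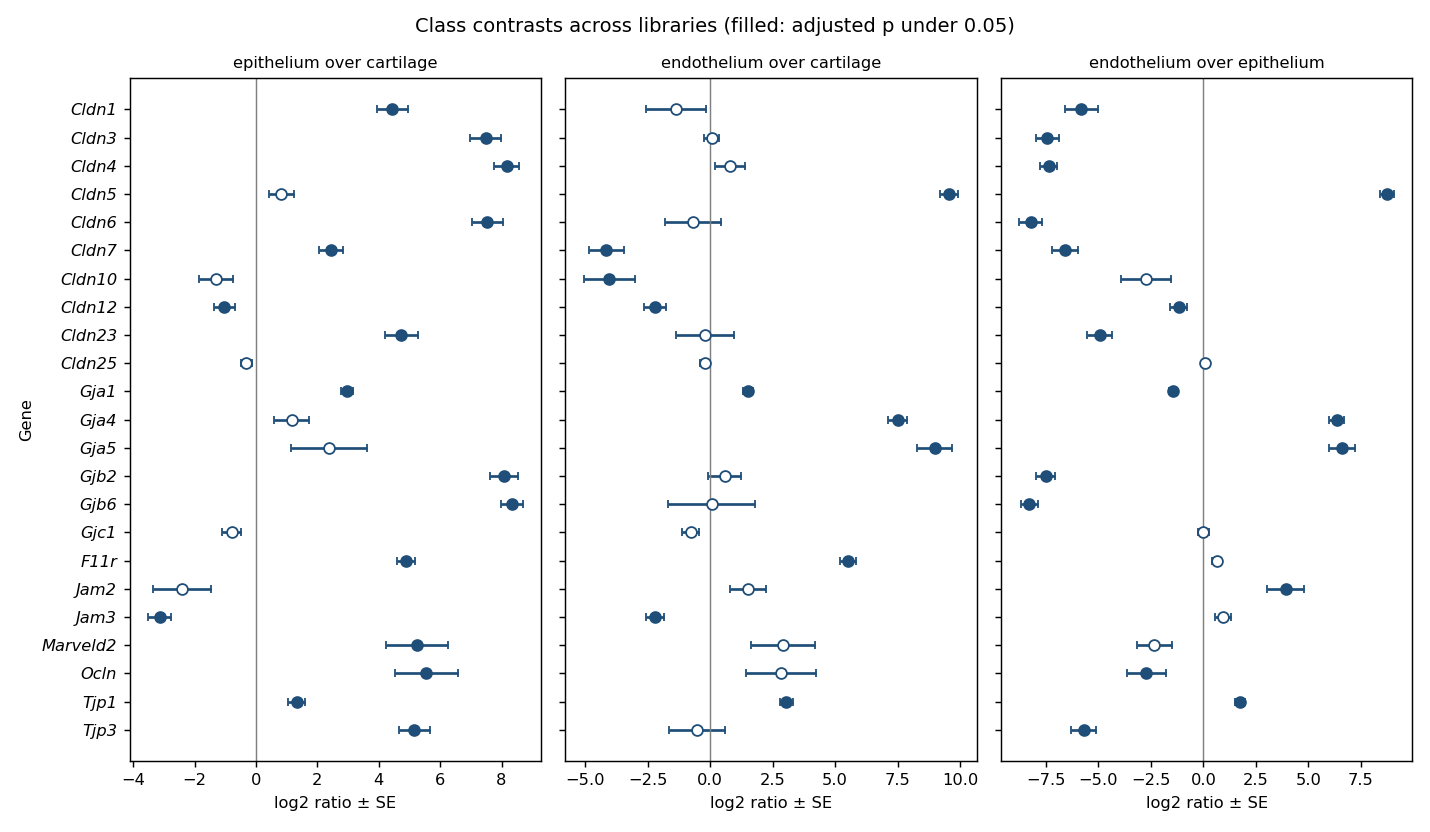
Log2 ratio of 23 members between the summed counts of 2 classes, 1 panel per contrast, with bars of 1 standard error; filled points have an edgeR adjusted p under 0.05. Cldn5, Gja4 and Gja5 lie far to the right in both endothelium panels, and of the members shown Gjb6, Cldn6 and Gjb2 lie farthest to the left in the endothelium over epithelium panel.

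The E11.5 ectoderm was not uniform. Subclustering gave a ridge-like group of 26 cells, with 10 of 12 ridge markers raised and Fgf8 leading (the apical ectodermal ridge is the signalling rim of the limb bud, and Fgf8 encodes its main growth factor). The surface cluster is the 124 cells of the subclusters that lay mainly in the main cluster with Cldn3, Gabrp and Krt8 as its first leading genes. These subclusters held 50 cells, named for simple keratins, and 74 cells that did not reach the naming rule. The remaining 214 cells are called other ectoderm. Later subclusters reached the naming rule with only 3 and 4 ridge markers, none of them among their 10 leading genes, and are not described as ridge. The ridge-like cells held 205107 UMIs in all, so counts of a few UMIs there are imprecise. Ratios between parts of 1 library have no replicate and no test; a part was called higher or lower where the ratio of CPM was at least 2, its exact conditional binomial interval lay on that side of 1, and the pair held at least 20 UMIs.

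No UMI of Gjb2 or Gjb6 was counted in the ridge-like cells, while both were frequent in the ectoderm around them. Gjb2 stood at 706 CPM (671 to 742; 1546 UMIs) in other ectoderm and at 255 CPM (227 to 284) in the surface cluster, and 0 UMIs were counted in ridge-like cells, where 3 UMIs would be 14.6 CPM. Set against that floor of 3 UMIs, Gjb2 was 48.3-fold lower in the ridge than in other ectoderm. The interval allows a difference as small as 39.2-fold. Gjb6, which lies 18601 bases from Gjb2, stood at 180 CPM (163 to 199) in other ectoderm, at 35.2 CPM (25.6 to 47.3) in the surface cluster and at 0 UMIs in the ridge. At the same floor Gjb6 was 12.3-fold lower in the ridge than in other ectoderm, and the interval allows a difference as small as 9.99-fold. Gja1 showed the opposite order: 1472 CPM (1311 to 1648) in the ridge, 761 CPM (714 to 811) in the surface cluster and 371 CPM (346 to 397) in other ectoderm.

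Among the claudins the ridge held Cldn6 at 609 CPM (507 to 726), Cldn7 at 449 CPM (362 to 550) and Cldn4 at 429 CPM (344 to 529), between the other ectoderm (326, 199 and 338 CPM) and the surface cluster (1366, 1115 and 2310 CPM). Of these, Cldn7 had a ratio of 2.25 over other ectoderm (1.78 to 2.83) and was called higher. The ratios of Cldn6 (1.87, 1.53 to 2.27) and Cldn4 (1.27, 1.01 to 1.59) had intervals above 1 but were under 2, so neither was called. Cldn3 had 4 UMIs in the ridge, or 19.5 CPM (5.31 to 49.9), against 32.0 CPM (24.9 to 40.4) in other ectoderm, which was not a detectable difference at this depth. Against all other epithelium-like cells of the library, 23 members had enough UMIs: 1 was called higher in the ridge (Gja1, 2.87-fold; 4.2% of all genes were called higher) and 7 lower (3.72% of all genes), among them Cldn3, Cldn4, Cldn23, Gjb2, Gjb6 and Ocln. The rest of the epithelium in that count includes the surface cluster. Against other ectoderm alone, a comparison chosen after seeing the data, 18 members had enough UMIs, of which 2 were called higher in the ridge (Gja1 and Cldn7; 4.5% of all genes) and 2 lower (Gjb2 and Gjb6; 3.33%). Cldn4 was 0.41 times its level in all other epithelium-like cells and 1.27 times its level in other ectoderm, the latter without a call.

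The surface cluster, set against other ectoderm by a choice made after seeing the data, was high in claudins and in the membrane proteins Ocln and Marveld2. It held 1036 CPM of Cldn3 (980 to 1094) against 32.0 CPM in other ectoderm, a ratio of 32.4 (25.5 to 41.8). Ocln stood at 103 CPM against 3.20 CPM (1.29 to 6.59), Marveld2 at 135 CPM (116 to 157) against 10.5 CPM (6.66 to 15.8), and Cldn23 at 131 CPM (112 to 153) against 7.31 CPM (4.18 to 11.9). Cldn8 had 89 UMIs in the surface cluster and 4 in other ectoderm, or 71.3 against 1.83 CPM. Of 23 members with enough UMIs, 13 were called higher in the surface cluster (8.31% of all genes) and 4 lower (9.26%). Among the 13 were Cldn1, Cldn3, Cldn4, Cldn6, Cldn7, Cldn8, Cldn9, Cldn23, Gja1, Marveld2, Ocln and Tjp3, and the 4 were Gjb2, Gjb6, Gjc1 and Jam3. The surface cluster made up 34.1% of epithelium-like cells at E11.5 but held 90.6% of the Cldn3 UMIs of the whole library, 76.2% of Cldn4, 70.3% of Cldn7 and 65.1% of Cldn6. F11r was less than 2-fold apart between the parts, at 375 CPM (296 to 469) in the ridge, 270 CPM (249 to 293) in other ectoderm and 330 CPM (299 to 363) in the surface cluster.

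**Figure D3:**
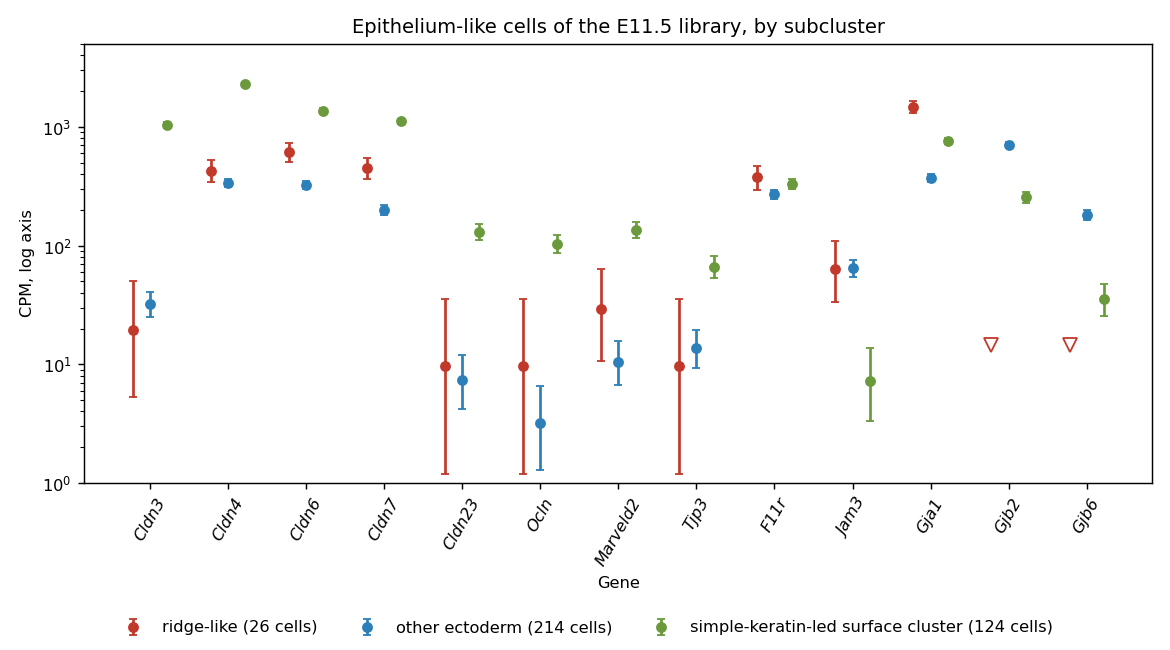
Level in CPM (log axis) of 13 members in ridge-like cells, other ectoderm and the surface cluster of the E11.5 library, with exact 95% Poisson intervals; open triangles mark 3 UMIs for genes with 0 UMIs. Gjb2 and Gjb6 are at 0 in the ridge, where Gja1 is at its highest, and Cldn3, Cldn23, Ocln and Marveld2 are high in the surface cluster.

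Within epithelium-like cells, Cldn3, Cldn6 and Cldn7 were far lower in the later libraries than at E11.5, Cldn4 was lowest at E13.5, and Cldn1 was highest at E18.5. In stage order Cldn6 was at 698, 54.3, 22.4 and 4.07 CPM, Cldn7 at 527, 34.2, 24.6 and 18.6 CPM, and Cldn3 at 375, 32.5, 44.9 and 16.3 CPM. Cldn6 was lower at every later stage, and for Cldn7 the intervals of E15.5 and E18.5 overlapped. Cldn4 was at 1019, 179, 219 and 470 CPM, lowest at E13.5 and higher again at E18.5, 2.15-fold (1.90 to 2.42) above E15.5. Cldn1, a claudin of the epidermal barrier, was at 7.41, 5.13, 8.54 and 40.1 CPM, so that only E18.5 stood apart, 4.70-fold (2.70 to 8.67) above E15.5. Cldn23 had 182 UMIs at E11.5 (43.0 to 57.8 CPM) and was at 4.79, 21.9 and 2.33 CPM later. In the 24 suprabasal-like cells of E18.5 Cldn1 was at 79.6 CPM (45.5 to 129; 16 UMIs) and Cldn4 at 388 CPM (307 to 485), while Cldn6 and Cldn7 had 0 UMIs there, where 3 UMIs would be 14.9 CPM.

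The epidermal connexins had their own order. Gjb2 was at 512, 395, 206 and 44.2 CPM, lower at each later stage, and Gjb6 at 120, 221, 135 and 30.8 CPM, highest at E13.5. Between E15.5 and E18.5 Gjb2 was 4.66-fold lower (3.64 to 6.05) and Gjb6 4.37-fold lower (3.24 to 5.99). Gja1 was at 567, 279, 371 and 470 CPM in stage order. It was called lower at E13.5 than at E11.5 by the rule of size, a call lost in 3 alternatives. Among the other tight junction members, Marveld2 was at 54.3 CPM at E11.5 and at 3.42 to 5.82 CPM later, Ocln at 37.9 and then 6.41 to 9.31 CPM, and Tjp3 at 31.6 and then 5.13 to 9.08 CPM. F11r was at 297, 74.9, 72.6 and 186 CPM, and Jam3 at 44.7, 12.0, 6.41 and 4.07 CPM. Tjp1 was at 25.5, 16.1, 15.0 and 14.0 CPM and was not called between any pair of successive stages. Of the less frequent members, Cldn8 was at 25.5, 6.49, 3.20 and 0.582 CPM and Cldn12 at 13.7, 4.44, 3.20 and 4.07 CPM. Cldn9 had 30 UMIs at E11.5, 1 at E13.5 and 0 later, where 3 UMIs would be 1.60 and 1.74 CPM. Gjc1 was at 36.2, 27.0, 11.2 and 5.82 CPM.

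**Figure D4:**
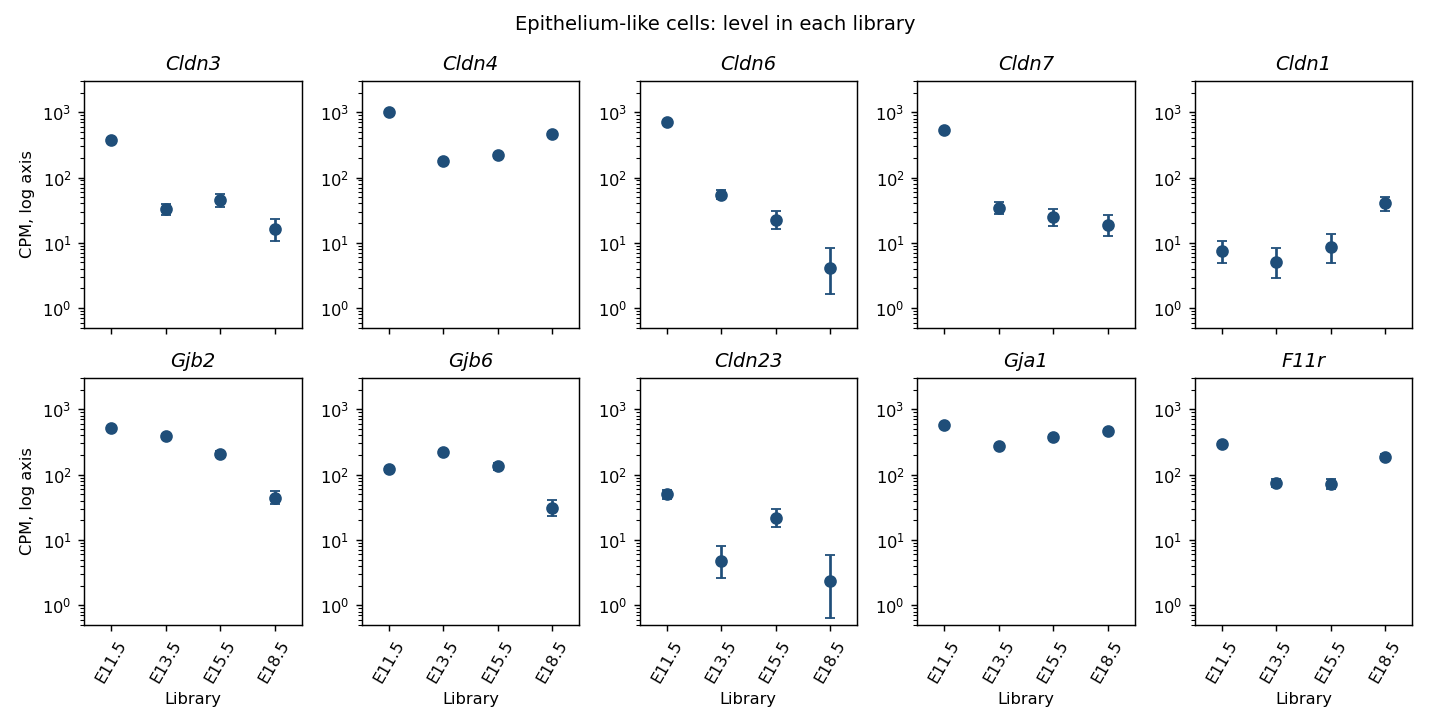
Level in CPM (log axis) of 10 members in epithelium-like cells of each library, with exact 95% Poisson intervals, 1 library per point. Cldn3, Cldn6, Cldn7 and Cldn23 are highest at E11.5, Cldn4 and F11r dip at E13.5 and E15.5, Cldn1 is high only at E18.5, and Gjb2 and Gjb6 are lowest at E18.5.

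By the same rule of size, 18 of 24 members with enough UMIs were lower in epithelium at E13.5 than at E11.5 (22.3% of all genes) and 0 were higher (7.66%). The median gene was itself lower there (log2 ratio -0.58), and relative to it 16 members were lower and 1 (Gjb6) higher, while the split over all 10739 genes turned from 823 higher and 2393 lower to 1440 higher and 680 lower. At E15.5 against E13.5, 1 of 19 members was higher (Cldn23; 1.65% of all genes) and 2 lower (Cldn6 and Gjc1; 2.89%). At E18.5 against E15.5, 3 of 17 were higher (Cldn1, Cldn4 and F11r; 8.66%) and 5 lower (Cldn3, Cldn6, Cldn23, Gjb2 and Gjb6; 9.13%). Successive comparisons share a library, so they are not independent of each other.

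The makeup of the class differed too. The simple keratin subcluster held 50, 16 and 26 epithelium-like cells in the first 3 libraries (13.7%, 6.61% and 15.8%), and no such subcluster was named at E18.5; at E11.5 a further 74 cells of the surface cluster were not in it. Other ectoderm at E11.5, which holds no surface cells and no ridge, was also set beside the E13.5 epithelium without its simple keratin subcluster. The E13.5 side kept the subclusters that reached the naming rule with 3 and 4 ridge markers and the subcluster with raised cartilage markers. Cldn6 was at 326 against 49.8 CPM, a ratio of 6.54, Cldn7 at 199 against 29.5 CPM (6.75), Jam3 at 64.4 against 12.9 CPM (4.99) and Cldn4 at 338 against 136 CPM (2.49). Ocln was at 3.20 against 5.53 CPM, on 7 and 15 UMIs, so its higher level at E11.5 was not seen in this comparison. Gjb6 was at 180 against 237 CPM. Cldn1 (ratio 1.24), Gja1 (1.58), Gjb2 (1.69), Gjc1 (1.57) and Tjp1 (1.57) were under 2-fold. Gjb6 (0.761) and Ocln (0.578) were lower at E11.5, also by under 2-fold. The remaining members compared were over 2-fold higher at E11.5, among them Marveld2 and Cldn23 with only 4 and 5 UMIs at E13.5. These ratios have no intervals and are not relative to the median gene. The part of class makeup in the stage differences was not tested.

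In endothelium Cldn5 was high in every library, in stage order at 1013 CPM (984 to 1041), 759 (710 to 811), 964 (910 to 1021) and 2381 (2207 to 2565). Endothelium-like cells held 94.4% to 97.9% of the Cldn5 UMIs of each library. In epithelium-like cells Cldn5 was at 1.07 to 3.84 CPM and in cartilage-like cells at 0.867 to 1.49 CPM. Whether free RNA or mixed droplets left these counts was not tested. Cldn5 was found in each kind of vessel cell: arterial-like cells (3 to 5 of 7 arterial markers) held 1636, 1467, 1374 and 3218 CPM in stage order, lymphatic-like cells (6 of 6 markers) 1613 and 1970 CPM in the last 2 libraries, and the remaining endothelium 937, 618 and 535 CPM from E11.5 to E15.5.

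The connexins separated the vessel types. Gja5 was at 104 (78.3 to 136), 105 (62.1 to 166), 195 (115 to 308) and 433 CPM (312 to 586) in arterial-like cells, which numbered 50, 17, 10 and 19. It had 0 UMIs in lymphatic-like cells of E15.5 and E18.5, where 3 UMIs would be 7.32 and 15.9 CPM. Every Gja5 UMI of endothelium-like cells from E13.5 on (18, 18 and 42) lay in arterial-like cells. The whole libraries held 37, 25 and 83 Gja5 UMIs at these stages, so the rest lay outside endothelium-like cells. Gja4 was at 448, 611, 270 and 722 CPM in arterial-like cells and at 63.6 CPM (32.8 to 111) in lymphatic-like cells of E18.5, with 0 UMIs in those of E15.5. Cldn11, better known from myelin and testis, separated the lymphatic-like cells at E18.5, with 164 CPM (112 to 233; 31 UMIs) against 7.32 CPM (1.51 to 21.4; 3 UMIs) in lymphatic-like cells at E15.5 and 0 UMIs in arterial-like cells of E18.5. Gja1 was at 281 CPM (232 to 337) in lymphatic-like cells of E15.5 and at 141 CPM (74.9 to 240) in arterial-like cells of that library, with intervals that overlapped.

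**Figure D5:**
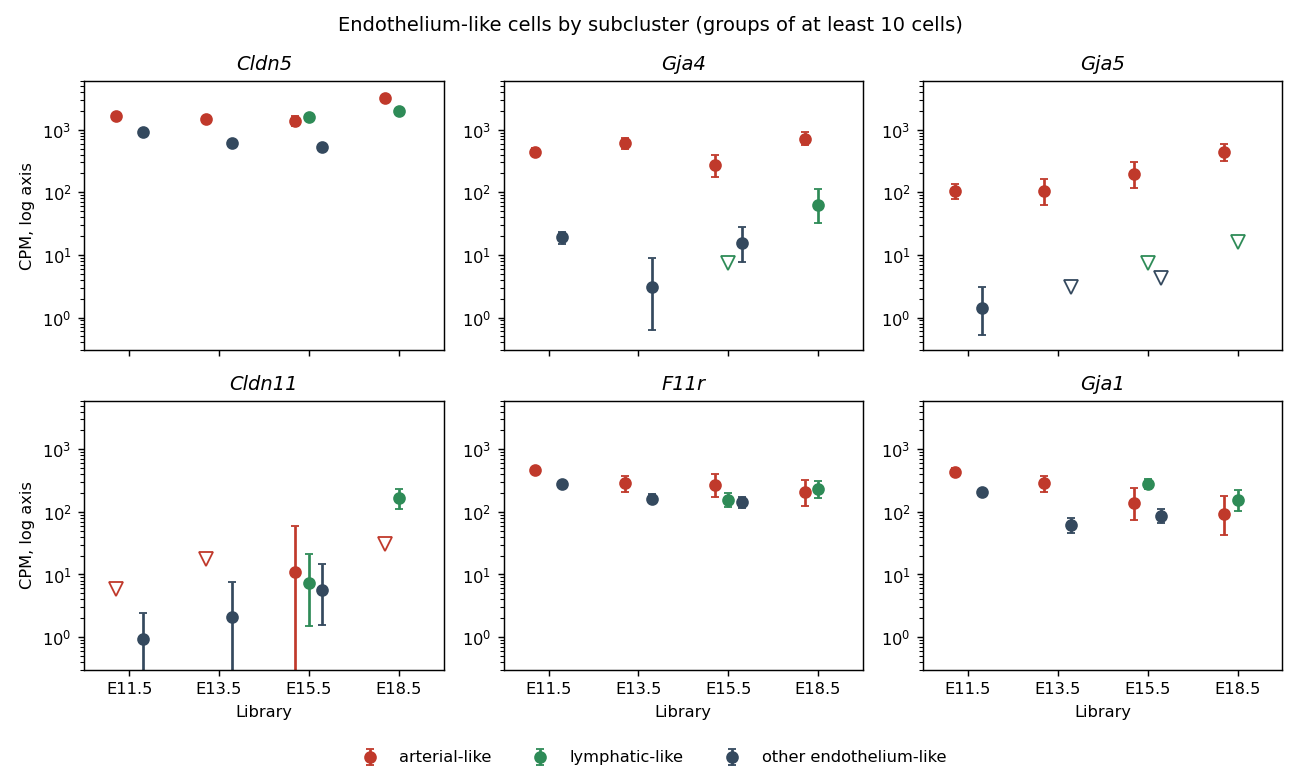
Level in CPM (log axis) of 6 members in arterial-like, lymphatic-like and other endothelium-like cells, by library, for groups of at least 10 cells, with exact 95% Poisson intervals; open triangles mark 3 UMIs for genes with 0 UMIs. Gja4 and Gja5 are high in arterial-like cells at every stage, Cldn11 is high in lymphatic-like cells at E18.5, and Cldn5 is high throughout.

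Over all endothelium-like cells, 5 of 12 members with enough UMIs were higher at E18.5 than at E15.5 (8.88% of all genes) and 0 were lower (8.42%). They were Cldn11 (6.61 to 106 CPM), Gja4 (29.7 to 288), Gja5 (14.9 to 144), Jam2 (9.09 to 30.9) and Cldn5. Jam2 rested on 11 and 9 UMIs and lost its call in 3 alternatives. The makeup of the class moved with them: arterial-like cells made up 8.93% of the E15.5 class and 40.4% of the E18.5 class, and lymphatic-like cells 30.4% and 55.3%. Markers of other cells moved in the class as well: from E15.5 to E18.5 the summed level of the 13 muscle markers went from 37.2 to 240 CPM (9 and 8 of them with UMIs), that of the 13 epithelial markers from 49.6 to 141 CPM (9 in both) and that of the 14 cartilage markers from 4176 to 292 CPM (14 in both). Their part in the result was not tested. Within arterial-like cells Gja4 was 270 (175 to 399) and 722 CPM (563 to 912) at these stages, and Gja5 195 and 433 CPM with intervals that did not overlap (115 to 308 and 312 to 586). At E13.5 against E11.5, 1 of 14 members was higher (Jam2, 4.61 to 18.9 CPM; 6.82% of all genes) and 1 lower (Gja1, 230 to 101 CPM; 15% of all genes). Relative to the median gene (log2 ratio -0.51) Gja4 joined Jam2 as higher and Gja1 was not called, and the split over all genes turned from 684 higher and 1504 lower to 1173 higher and 230 lower. At E15.5 against E13.5, 0 of 11 were higher (2.06%) and 1 was lower (Gja4, 92.9 to 29.7 CPM; 2.34%). The ZO member Tjp1 was at 47.3, 66.2, 60.3 and 68.6 CPM and F11r at 294, 181, 155 and 220 CPM in stage order. Jam3 was at 37.7, 26.7, 25.6 and 20.6 CPM.

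In cartilage-like cells levels are compared between E13.5 and E15.5 only, because of the Fmod cluster that held most of these cells at E18.5. That cluster held 2 and 33 of them at the earlier stages, and it too had 13 cartilage markers raised. E18.5 values are given as levels of the cartilage-like cells of that library. Jam3 was at 86.5 CPM (82.7 to 90.5) and 87.4 CPM (83.2 to 91.9), with intervals that overlapped, and at 89.3 CPM in the E18.5 cells. Gjc1 (connexin 45) was at 25.5 and 24.9 CPM, with intervals that overlapped, and within 19.8 to 33.5 CPM in the E18.5 cells. Gja1 was at 39.4 and 53.3 CPM, and at 48.1 CPM in the E18.5 cells. In the same order Cldn12 was at 10.7, 9.20 and 5.20 CPM, Cldn10 at 8.08, 4.90 and 6.50 CPM and Cldn7 at 5.83, 5.07 and 5.20 CPM. Low as they were, Cldn7, Cldn10 and Cldn12 were higher than in endothelium: the log2 ratios of endothelium over cartilage were -4.16 (SE 0.70), -4.04 (SE 1.02) and -2.21 (SE 0.43), with adjusted p-values by edgeR of 0.00104, 0.0102 and 0.00236. Jam3 was also higher in cartilage (-2.21, SE 0.36; adjusted p 0.000806 by edgeR). Without the E13.5 library the calls for Cldn10 and Cldn12 were lost (log2 ratios -3.06 and -1.93), and without the E15.5 library that for Cldn10 (-6.16).

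Clusters named from markers of hypertrophic cartilage, the enlarged cells that precede bone, held 143, 191 and 22 of the cartilage-like cells (here called hypertrophic-like). In stage order Gja1 was at 12.8 CPM (8.89 to 17.9), 130 CPM (117 to 144) and 31.0 CPM (14.2 to 58.8) in these cells, and the 191 cells of E15.5 held 16.4% of the library's Gja1 UMIs. Jam2 was at 27.7 CPM (21.8 to 34.7) in them at E15.5 and at 0.378 CPM (1 UMI) at E13.5, and in the other cartilage-like cells it was at 2.56 and 2.47 CPM at E13.5 and E15.5. A cluster led by Uts2b, Smpd3 and Ihh, without Col10a1 among its 10 leading genes, held 141, 119 and 20 of the hypertrophic-like cells in stage order. A cluster led by Spp1 and Mmp13, with Col10a1 among its leading genes, held 72 of those at E15.5 and 2 in each of the other libraries with cartilage. The makeup of the hypertrophic-like cells therefore differed between libraries, and stage cannot be told apart from it here. Over all cartilage-like cells, 1 of 19 members was higher at E15.5 than at E13.5 (Jam2, 2.73-fold, from 50 to 114 UMIs; 3.32% of all genes) and 2 were lower (Cldn11, 1.88 to 0.771 CPM, and Gjb2, 1.61 to 0.331 CPM; 0.648%). These 2 levels are low, and Cldn5 was at 1.15 and 1.49 CPM in the same cells. Over the whole library Gjb2 went from 34.3 to 13.7 CPM and Cldn11 from 5.22 to 1.99 CPM. Whether the 2 calls reflect cartilage cells or counts from other cells was not tested.

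Some members also had counts in other cells of the limb. Jam3 was at 201 to 249 CPM in muscle-like cells from E13.5 to E18.5. Pericyte and smooth muscle-like cells of E18.5 (339 cells) held Gjc1 at 222 CPM and Gja4 at 145 CPM, which made 71.2% and 78.9% of the library's UMIs of these genes. Connective tissue fibroblast-like cells of E18.5 held Cldn10 at 52.3 CPM, which was 73.5% of its UMIs in that library. Gja1 was at 349 CPM in limb bud mesenchyme-like cells of E11.5, which held 54.2% of the library's 8679 Gja1 UMIs. The gene named Cldn25 in the files was between 32.9 CPM (granulocyte-like, E18.5) and 151 CPM (limb bud mesenchyme-like, E11.5) in every named class and library with at least 5 of its UMIs; its identifier belongs in GENCODE vM21 to Cldnd1, which is not a classical claudin, and Cldn26 likewise to Tmem114.

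Over whole libraries a gene's level depends on how many cells of each type were captured, and fewer cells and less RNA per cell cannot be told apart there. At E13.5 against E11.5, 2 of 33 members were higher (Cldn10 and Cldn20; 12.8% of all genes) and 22 lower (26.2%). Relative to the median gene (log2 ratio -0.55) 3 were higher and 17 lower, and over all genes 1946 higher and 3974 lower became 2960 and 1458. At E15.5 against E13.5, 1 of 32 was higher (3.86%) and 5 lower (0.963%). At E18.5 against E15.5, 11 of 30 were higher (11.7%) and 6 lower (8.22%). Of these 30 members Gja4 had the largest ratio, from 1.86 to 34.8 CPM, and most of its UMIs at E18.5 were in pericyte and smooth muscle-like cells.

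The other members were rare. Cldn17, Cldn18 and Cldn24 had 0 UMIs in the 9929 kept cells, and 19 members had 1 to 99. Gjb5 was the most frequent connexin among these with 85 UMIs, 39 of them in epithelium-like cells of E11.5, and Cldn15 the most frequent claudin with 98. Gjc3 had 27 UMIs and was at 45.2 and 39.6 CPM in melanocyte-like cells of E15.5 and E18.5 (10 and 6 UMIs). Cldn3, Cldn19, Cldn22, Gja5, Gjd2 and Tjp3 overlap a gene on the other strand in GENCODE vM21 that is also in the files. No source used here says whether counting used the strand, and without it the reads of such a pair cannot be told apart.

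Of 20 related junction genes outside the rule, 15 were tested between classes. In epithelium against cartilage 8 were higher (20.1% of all genes tested) and 2 lower (19.2%). In endothelium against cartilage 3 were higher (17.8%) and 4 lower (18.5%), and in endothelium against epithelium 4 were higher (17.1%) and 9 lower (16.1%). Crb3, an apical polarity protein, and Cgn (cingulin, a tight junction plaque protein) were lower in endothelium than in epithelium, with log2 ratios of endothelium over epithelium of -7.37 (SE 0.58) and -6.43 (SE 0.60). Panx3, a pannexin channel, and Marveld1 were the 2 lower in epithelium than in cartilage, and both were also lower in endothelium. Panx3 is itself a marker used to name hypertrophic cartilage, which is part of the cartilage class. Its calls against cartilage, included in the counts above, are therefore not independent of the naming. In cartilage-like cells Panx3 was at 114, 99.0 and 42.5 CPM and Marveld1 at 49.2, 50.6 and 56.3 CPM from E13.5 to E18.5. In epithelium at E13.5 against E11.5, where the median gene was also lower, 10 of 15 related genes were lower (22.3% of all genes) and 0 higher (7.66%). Among the lower ones were Lsr (232 to 73.8 CPM) and Cgn (75.2 to 21.9 CPM).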

How the data were processed

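The authors deposited 1 matrix of UMI counts for each of 4 libraries. The submitters' processing notes name Cell Ranger, Seurat 2.3.4 and mm10, with no role for each; the Cell Ranger version, how barcodes were called as cells, and strand use are not stated. The counts are whole numbers and were not normalised.

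Barcodes under 200 genes or over 10% mitochondrial UMIs were dropped. Scrublet called 29 doublets (0.282%), too few for a working call, so doublets are treated as present. Cells were clustered with scanpy 1.11.5 (2000 variable genes without the members, 30 components, Leiden resolution 1), and clusters were named from marker lists (at least 3 markers). Epithelium and endothelium were subclustered by stage. Levels are UMIs per 1000000 of a group's UMIs without globin genes, with exact Poisson intervals; shares have Clopper-Pearson intervals. Class contrasts used edgeR 4.0.16 (TMM, filterByExpr, library block, Benjamini-Hochberg, threshold 0.05), for classes with at least 30 cells in a library; the standard error is the log2 ratio divided by the root of F. DESeq2 1.42.0 was an alternative. Ratios of stages had no test: with 1 library per stage a member was called by a rule of size. Both procedures were tested on simulated data. Members with at least 100 UMIs are named with values. Some members are counted but not reported here by name. The members and lists were chosen with earlier results of these data known. Replicate numbers pair nothing, since each stage has 1 library.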

Additional observations from a re-analysis of the deposited data

How the results depend on the processing

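Of 212 counts of members recomputed under an alternative, 193 stayed within 1.5 times the reported count. Leaving out each library in turn, members higher ran from 11 to 17 (epithelium over cartilage), 8 to 9 (endothelium over cartilage) and 6 to 7 (endothelium over epithelium), and members lower from 1 to 3, 2 to 4 and 7 to 15. The lowest counts came without the E15.5 library (1), the E13.5 library (2) and the E11.5 library (7, and 11 higher in epithelium over cartilage), the last with 19 members passing the filter against 26. With no filter on low counts, 5 members were lower in epithelium than in cartilage and 7 in endothelium than in cartilage; with cells classed by highest marker score the first count was 1. At a minimum of 50 UMIs the counts were 1 higher (whole library, E13.5), 3 lower (epithelium, E18.5), 0 higher (endothelium, E13.5), 3 higher (endothelium, E18.5) and 1 lower (cartilage, E15.5), where fewer genes could be called. Relative to the median gene, E13.5 gave 1 higher in epithelium and 2 higher and 0 lower in endothelium. Without the top 3% of Scrublet scores 2 were lower in endothelium at E13.5, and 2 at E15.5 with the stricter cell filter (0 at Leiden resolution 0.5). By highest marker score cartilage at E15.5 had 2 higher and 1 lower. The cause was not tested.

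Of 1064 values of single members, 1010 kept their direction and call, 54 kept the direction below the rule and 0 turned. Cldn12 in both epithelium contrasts and Ocln in endothelium over epithelium lost their call with DESeq2 and without the E13.5 or the E15.5 library, and Ocln also without E11.5. Leaving out subclusters with markers of other classes, chosen after seeing the data, ended the calls of Ocln (endothelium over epithelium) and Gja1 (epithelium, E13.5). Small groups limit depth: 26 ridge-like cells, and 10 to 50 arterial-like cells per library. Class contrasts were paired within each library, which entered as a block. No paired analysis was possible because each stage has 1 library, as far as the comparisons of stages go.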
